A study of Drosophila melanogaster with 27 samples.

Results

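A group of 200 fly genes whose symbol in the array annotation is a CG number was chosen for strong enrichment of their mRNA in immunoprecipitates of AGO1 from adult heads. CG numbers are the placeholder symbols that genome annotation gave to predicted Drosophila genes. The members were taken from 1 set of arrays, wild-type replicate 1, by 3 conditions on Affymetrix probe sets (the groups of short probes that read 1 transcript). The annotation had to give the probe set a single symbol of CG and digits, its mean log2 level in the whole head extract had to be above 5, and its level in the precipitate had to exceed that in the extract by at least 1.5 on the log2 scale as a mean over 6 times of day. These conditions kept 202 probe sets of 200 genes out of 18769 probe sets in all. They were 4.95% of the 4077 CG probe sets (3905 genes) with an extract level above 5. By the same thresholds, 342 of 6151 probe sets with another single symbol passed, which is 5.56%.

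The study precipitated AGO1 from head extracts of adult flies kept under 12 hours of light and 12 hours of dark, and read the RNA of the extract (INPUT) and of the precipitate (IP) on 27 arrays. Wild-type flies were sampled at 6 zeitgeber times (ZT, hours after lights on), namely ZT3, ZT7, ZT11, ZT15, ZT19 and ZT23. Each time had 2 arrays for each fraction, described in the design as biological replicates, except INPUT at ZT3 with 1 array. The other genotype is labelled Tim-Dcr, and the labels do not explain the name; it had 1 INPUT and 1 IP array at ZT3 and at ZT15. The sources used here do not give the wild-type strain, the age of the adults or the promoter or allele behind Tim-Dcr. No precipitate made with a control antibody was analysed here, so the background of the precipitation itself was not measured.

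Argonaute proteins hold a small RNA and use it to find complementary stretches in mRNAs. In Drosophila, AGO1 is the Argonaute that carries most microRNAs, and mRNAs bound by it are usually held back from translation and degraded sooner. Pulling down AGO1 and reading the mRNAs that come with it is therefore used as a list of candidate microRNA targets that does not depend on sequence prediction. A CG symbol usually means that no mutant phenotype gave the gene its symbol, although some of these genes have other names among their synonyms.

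Each array was first centred on its own median, because the precipitate arrays sat lower as deposited. Medians of the deposited log2 values were 6.11 to 6.19 in wild-type INPUT, 4.77 to 4.90 in wild-type IP, 5.66 to 5.93 in Tim-Dcr INPUT and 4.34 to 4.54 in Tim-Dcr IP. Enrichment below is the centred IP level minus the centred INPUT level, so it compares a gene with the typical probe set of the array and is no absolute yield. In replicate 2 the median deposited difference of all tested probe sets was -1.30, and a shift of this kind separates the centred from the deposited values in each group of arrays. Head markers were present in both genotypes. The 4 photoreceptor genes measured (inaD, chp, trp and Arr2, of 7 listed) summed to 47.6 to 49.0 in wild-type INPUT and 48.7 to 49.3 in Tim-Dcr INPUT, as log2 levels added over genes. Several of the other lists differed between the genotypes, in both directions. The 4 neuron genes summed to 36.9 to 38.9 in wild-type INPUT and 39.0 to 39.7 in Tim-Dcr INPUT, the 4 glia genes to 42.0 to 43.7 and 45.2 to 45.5, and the 4 fat body genes to 37.4 to 40.5 and 43.5 to 43.8. Genes of a list did not move alike. Mean nSyb was 10.87 in wild-type and 10.72 in Tim-Dcr INPUT, while the other neuron genes were higher in Tim-Dcr. Lsp2 went from 7.56 to 10.61, and the other fat body genes rose far less. Over all tested probe sets the median deposited INPUT difference, Tim-Dcr minus replicate 2, was 0.23 per probe set. The 6 testis and accessory gland genes summed to 58.4 to 63.1 in wild-type INPUT and to 25.9 to 39.9 in Tim-Dcr INPUT, and 3 midgut protease genes to 33.6 to 36.1 and 15.9 to 20.5. The ranges of the 3 muscle and the 3 ovary genes overlapped. The wild-type IP array of ZT3 in replicate 2 stood apart, with a median correlation of 0.981 with the other wild-type IP arrays, where the others had 0.990 to 0.993. It had the lowest sums of the 12 for the testis and accessory gland (42.7, next 48.3), midgut (26.1, next 29.3) and muscle genes (21.6, next 23.9). It has no INPUT partner and is not among the differences of IP minus INPUT below, but enters the IP comparison of the genotypes and the rhythm fits.

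In the arrays that chose them, the members had enrichments from 1.501 to 3.39 with a median of 1.83, which is a description of the choice. CG15345 (3.39), CG6583 (3.32) and CG15385 (3.09) stood at the top of that range. Just inside the threshold lay CG11791 (1.501), CG3163 (1.51) and CG31109 (1.51), and just outside it CG6689 (1.498), CG5880 (1.495) and CG6972 (1.49). A threshold of 1 would have kept 436 probe sets and one of 2 would have kept 77. Without the INPUT minimum there would have been 207, and with a minimum of 6 there would have been 177. All 202 members passed the later filter on low values, and all of them also did so through INPUT arrays alone. Their replicate 1 INPUT level, as deposited, ran from 5.03 to 13.7 with a median of 7.21; 6 lay above 10 and 25 below 6.

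Replicate 2 of the wild type, whose arrays the choice did not use, gave the same measure at ZT7, ZT11, ZT15, ZT19 and ZT23. All 202 members were higher in the IP there by limma at an adjusted p below 0.05, where 28.1% of all 15835 tested probe sets were. Each of the 5 IP levels lay above each of the 5 INPUT levels in all 202 members, against 19.4% of tested probe sets. The IP level exceeded the INPUT level at all 5 times in 202 members, against 28.5%. Enrichment ran from 1.01 to 3.10 with a median of 1.71, or 3.27-fold, while the median of all tested probe sets was -0.01. The quartiles of the members were 1.44 and 2.02. At least 1.5 was reached by 145 members, against 3.26% of tested probe sets, and at least 2 by 53, against 1.23%.

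On deposited values the picture was smaller in size, since the general shift stayed in. The mean IP level exceeded the mean INPUT level in 184 members and lay below it in 18, against 4.76% of tested probe sets above. The median deposited difference of the members was 0.43. By limma on those values 145 members were higher and 2 lower, where 3.4% and 93.6% of tested probe sets were. The direction of the 18 thus depends on centring, and the enrichment of every member is relative to the array median.

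**Figure D1:**
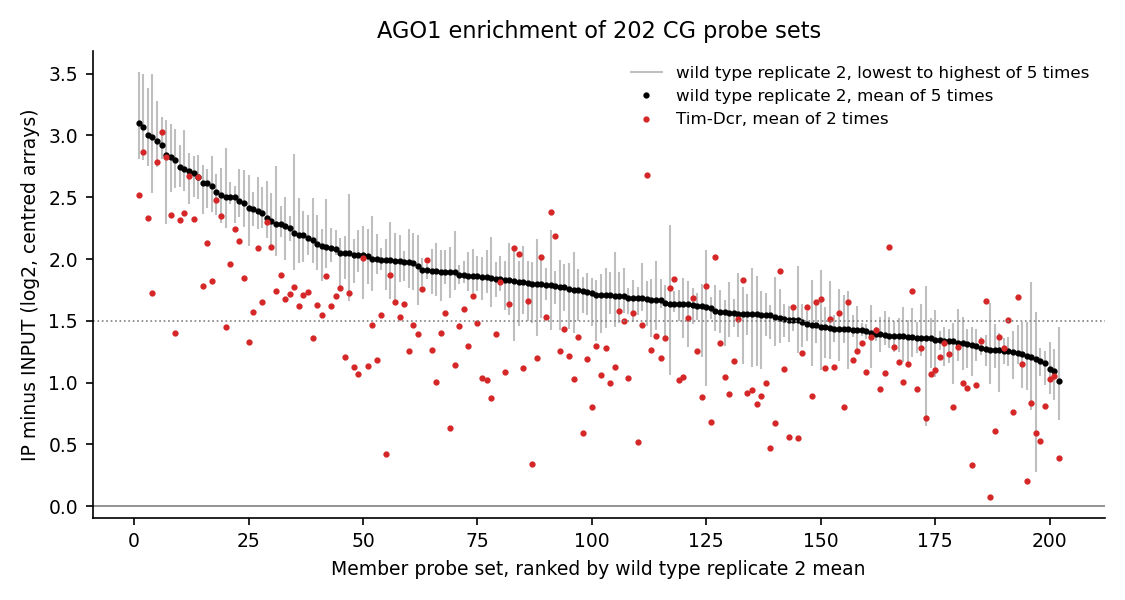
IP minus INPUT on centred log2 arrays for each of the 202 member probe sets, ranked along the x axis by the wild-type replicate 2 mean, with black points for that mean, grey bars from the lowest to the highest of its 5 times, red points for the Tim-Dcr mean of 2 times and a dotted line at 1.5. The replicate 2 mean falls from 3.10 to 1.01, and most Tim-Dcr values lie below it.

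Members kept their order between the replicates to a large extent. Over the 5 shared times the enrichments of replicate 1 and replicate 2 had a Pearson correlation of 0.892 and a Spearman correlation of 0.811 across the 202 members, which share arrays and are no independent points. Of the 20 highest members in each replicate, 18 were the same. Replicate 2 lay below replicate 1 in 161 members, against 60.3% of tested probe sets, with medians of 1.71 and 1.84 at those times. That direction is the one a choice on replicate 1 favours. Enrichment had little relation to the INPUT signal of a probe set, with correlations of -0.132 (Pearson) and -0.105 (Spearman) between INPUT level and replicate 2 enrichment. In 4 groups of 50 or 51 members from the lowest to the highest INPUT signal, the median enrichment was 1.80, 1.83, 1.63 and 1.69.

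CG15345 had the highest enrichment in replicate 2. Its centred INPUT levels were -0.01, -0.04, 0.01, 0.06 and -0.19 at ZT7, ZT11, ZT15, ZT19 and ZT23, and its IP levels were 2.80, 2.96, 3.52, 3.05 and 2.99. Its signal thus lay near the array median in the extract and far above it in the precipitate at each time. The enrichment was 3.10 (SE 0.10, n = 5 differences), or 8.56-fold, with a limma adjusted p of 6.34e-11. CG15345 was the only member whose gene ID had no match in the RefSeq gene table.

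CG10710 came next, from one of the lowest INPUT signals among the members. Its INPUT levels were -1.50, -1.13, -0.78, -1.07 and -1.25, below the array median at every time, and its IP levels were 2.00, 1.82, 2.02, 1.96 and 1.80. The enrichment was 3.07 (SE 0.10). As deposited, those INPUT levels were 4.68, 4.98, 5.34, 5.10 and 4.90, around the minimum of 5 that the rule set, so no fold is given here. CG4596 had INPUT levels of 1.13, 1.69, 1.56, 1.64 and 1.46 and IP levels of 4.23, 4.44, 4.95, 4.49 and 4.41, an enrichment of 3.01 (SE 0.09). In each of these genes the lowest IP level stood at least as far above the highest INPUT level as the spread within either fraction.

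CG15385 had differences of 3.50, 2.86, 3.44, 2.54 and 2.61 over the 5 times, with a mean of 2.99 (SE 0.13). It was among the members that varied most between times, with an SD of 0.456, while the median SD of the members was 0.159. CG6583 was steadier, with differences of 3.15, 2.81, 2.92, 2.85 and 2.86 and a mean of 2.92 (SE 0.07). CG31710 had a mean of 2.95 (SE 0.09), and its levels in both fractions changed over the day as described further on.

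The rest of the 15 highest lay between 2.62 and 2.84. They were CG18265 at 2.84, CG12659 at 2.82, CG13252 at 2.80, CG11617 at 2.75, CG14883 at 2.73, CG1103 at 2.72, CG13559 at 2.69, CG5934 at 2.66 and CG12863 at 2.62. RefSeq gives CG11617 the synonym Mkx, the symbol of the vertebrate homeobox gene Mohawk, and CG18265 the synonym ORE-10. CG11617 had low INPUT levels of -0.81, -0.93, -0.96, -0.59 and -0.92, and IP levels of 1.95, 1.91, 1.96, 1.99 and 1.71. CG5934 had higher INPUT levels, of 2.48, 2.79, 2.88, 2.70 and 2.63, and IP levels of 4.96, 5.46, 5.72, 5.27 and 5.39. Both genes had enrichments of about the same size, each measured within its own probe set.

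**Figure D2:**
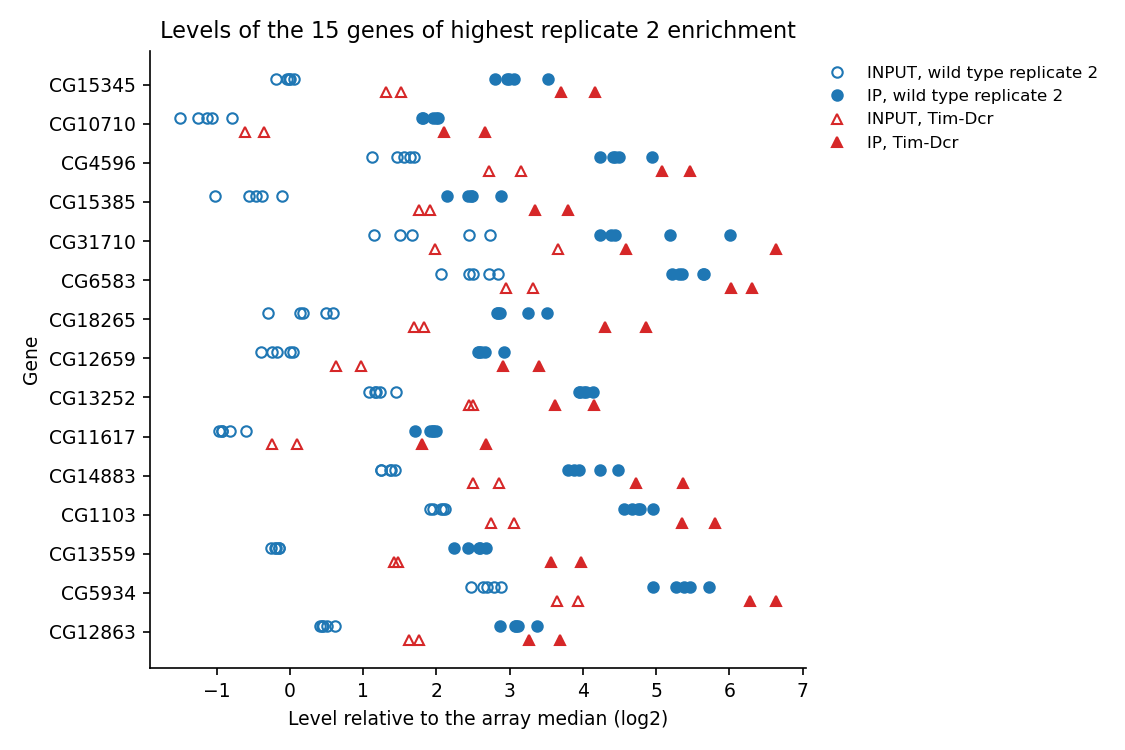
Level relative to the array median (log2) on the x axis for the 15 genes of highest replicate 2 enrichment, with 1 point per array, open for INPUT and filled for IP, circles for the 5 times of replicate 2 and triangles for the 2 of Tim-Dcr. The INPUT and IP circles of each gene form separate groups, from CG15345 with a gap of 3.10 between the means to CG12863 with 2.62.

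At the other end, the 6 members of lowest replicate 2 enrichment were CG31418 (1.01), CG5177 (1.10), CG31051 (1.11), CG9164 (1.16), CG16772 (1.18) and CG11113 (1.19). All of them were past the limma test on centred values. CG11113 had differences of 1.57, 0.28, 1.21, 1.495 and 1.41, the widest spread over times among the members (SD 0.527). Its INPUT levels were -1.06, -0.73, -1.08, -0.88 and -0.92 and its IP levels 0.51, -0.46, 0.12, 0.61 and 0.48, so that the small value at ZT11 came from a lower IP level. On deposited values each of these 6 lay slightly below INPUT, from -0.09 in CG11113 to -0.27 in CG31418.

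The 5 members of highest INPUT signal were CG13315, CG1943, CG13124, CG14777 and CG11791, with replicate 1 INPUT levels of 13.7, 11.97, 10.97, 10.6 and 10.5 as deposited. Their replicate 2 enrichments were 1.46, 1.34, 1.63, 1.42 and 1.43, all below the median of the members. CG13315 had centred INPUT levels of 7.39, 7.53, 7.48, 7.68 and 7.58 and IP levels of 8.82, 8.98, 9.12, 9.15 and 8.90. The 5 of lowest signal were CG17803, CG15044, CG10710, CG11617 and CG33941, with INPUT levels of 5.03, 5.09, 5.13, 5.24 and 5.25. Their enrichments were 1.84, 1.99, 3.07, 2.75 and 1.64. CG33941 has the RefSeq synonym pncr013:4, the style of name given to putative noncoding RNAs, although RefSeq lists the gene as protein coding.

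Names known to RefSeq under other symbols gave a partial view of what the members encode. Of the 200 genes, 199 matched the RefSeq gene table of the release 6 assembly by gene ID, each of them still had a CG symbol there, and all 199 were protein coding. A synonym other than a clone or CG identifier stood beside 25. Several synonyms are those of vertebrate genes, whose roles are given here as known from vertebrates. CG17343 (Cdc26, a subunit of the anaphase-promoting complex, which marks cell cycle proteins for destruction) had a replicate 2 enrichment of 1.86. CG7376 (SHPRH, a ubiquitin ligase) had 1.89, and CG1239 (BCDIN3D, an RNA methyltransferase) had 1.51. CG43066 carries the synonym of the amino acid transporter Slc6a20 and had 1.90. CG10444 carries that of the inositol transporter SLC5A3, with a d before it for Drosophila, and had 1.62. CG3376 (aSMase, acid sphingomyelinase, which cleaves the membrane lipid sphingomyelin) had 1.57. CG4461 (Hsp20, a small heat shock protein name) had 1.36, with differences of 0.65, 1.49, 1.48, 1.40 and 1.78 over the 5 times, the smallest of them at ZT7. CG46339 is listed with the synonym slamdance, a fly gene known for seizures after mechanical shock, and had 1.61. No shared function is stated for these genes by the table, and no class among them was tested.

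Published microRNA targets were read by the same measure. Of 34 target genes listed from memory of the literature, 22 were on the array and 20 passed the filter. In replicate 2, 19 were higher in the IP and 1 lower by limma, where 28.1% and 30.5% of tested probe sets were. Their median enrichment was 1.73. Among them were fng (2.34), a modifier of the Notch receptor, hry (2.16), a transcriptional repressor, and skl (2.44), a cell death gene. The exception, tn, had -0.59. In Tim-Dcr, 14 were higher and 1 lower by limma, where 24.6% and 20.4% of tested probe sets were, with a median of 1.02. The median of the members is partly set by the threshold of 1.5, so it is not compared with that of the list. The list also had no INPUT minimum, and BobA, for example, had a mean wild-type INPUT level of 3.87. As deposited, the mean wild-type IP level exceeded the INPUT level in 16 of the 20. Earlier results of these data were known when the list was used, so it is no independent evidence of direction.

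In Tim-Dcr heads, 196 of the 202 members were higher in the IP by limma and none lower, where 24.6% and 20.4% of tested probe sets were. The median was 1.37, or 2.58-fold, and the range ran from 0.08 to 3.03. At least 1.5 was reached by 86 members, against 2.19% of tested probe sets, and at least 1 by 163, against 5.5%. The IP level exceeded the INPUT level at both times in 201 members, against 42.2% of tested probe sets, and both IP levels exceeded both INPUT levels in 194, against 24.5%. On deposited values 65 members were higher and 52 lower by limma, where 1.54% and 94.9% of tested probe sets were. The IP level lay below INPUT there in 97 members, so the direction of these rests on centring. Across the members, Tim-Dcr and replicate 2 enrichments had a Pearson correlation of 0.674 and a Spearman correlation of 0.600.

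The member with the highest Tim-Dcr enrichment was CG6583. Its INPUT levels at ZT3 and ZT15 were 2.95 and 3.32 and its IP levels 6.03 and 6.31, a mean difference of 3.03 (SE 0.11, limma adjusted p 1.66e-08). Of the other genes highest in replicate 2, CG10710 had 2.87, CG18265 2.82, CG31710 2.79, CG1103 2.67, CG5934 2.66 and CG15345 2.52. CG14883 had 2.37, CG12659 2.36, CG4596 2.33, CG13559 2.32 and CG11617 2.32. Lower values were seen in CG12863 (1.78), CG15385 (1.73) and CG13252 (1.41). All 15 were past the test in Tim-Dcr.

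The 6 members that did not pass in Tim-Dcr were CG40298, CG11113, CG15406, CG31418, CG5767 and CG6138. CG6138 had INPUT levels of 0.46 and -1.55 and IP levels of 0.60 and -1.54, so both fractions changed together and the enrichment was 0.08 (SE 0.15, limma adjusted p 0.693). The IP array of ZT15 had a deposited median of 4.34, so that IP level of CG6138 lay below the log2 4 of the filter. Another probe set of CG6138 had enrichments of 0.63 in replicate 2 and 0.43 in Tim-Dcr. CG5767 had differences of 0.13 and 0.29, a mean of 0.21 (adjusted p 0.245). CG15406 had 1.08 at ZT3 and -0.14 at ZT15, a mean of 0.47 (adjusted p 0.0764), so its 2 times disagreed in sign. The IP level of CG15406 at ZT15 also lay below log2 4 as deposited. CG31418 had 0.30 and 0.48 (adjusted p 0.0582), CG11113 had 0.88 and 0.31 (adjusted p 0.0665), and CG40298 had 0.03 and 1.08 (adjusted p 0.0516). The calls of CG11113, CG15406, CG31418 and CG40298 turned when single times were left out. Among left-out times, that of CG31418 turned only without wild-type ZT7 or ZT11, with its Tim-Dcr value unchanged at 0.39. Leaving out 1 Tim-Dcr time made CG15406 1.08 or -0.14, and CG40298 1.08 without ZT3.

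The enrichment of the members was mostly lower in Tim-Dcr than in replicate 2. By the limma test of the difference, 87 members were lower and 7 higher, with 10.97% of tested probe sets lower and 11.8% higher, and 108 members did not pass. The median difference of the members was -0.38, while that of all tested probe sets was 0.05. The value lay below replicate 2 in 171 members, against 44.96% of tested probe sets. Both Tim-Dcr differences lay below the lowest of the 5 replicate 2 differences in 122 members, against 19.5% of tested probe sets, and above the highest in 12, against 19.6%. Members were chosen for high wild-type enrichment, so a lower value in any other group is the direction that the choice favours. The times also differ between the groups, and at ZT15 alone 174 members lay below replicate 2, against 51.1% of tested probe sets, with a median of -0.44. Without the Tim-Dcr arrays of ZT3 the count of calls was 44, of which 42 were lower, where 4.62% of tested probe sets were lower and 5.8% higher.

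Genes with other symbols, chosen by the same thresholds, showed the same pattern. Of those 342 probe sets, 142 were lower and 11 higher in Tim-Dcr by limma, a share of 41.5% lower beside 43.1% of the members. Nothing particular to the CG genes is claimed from these counts.

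**Figure D3:**
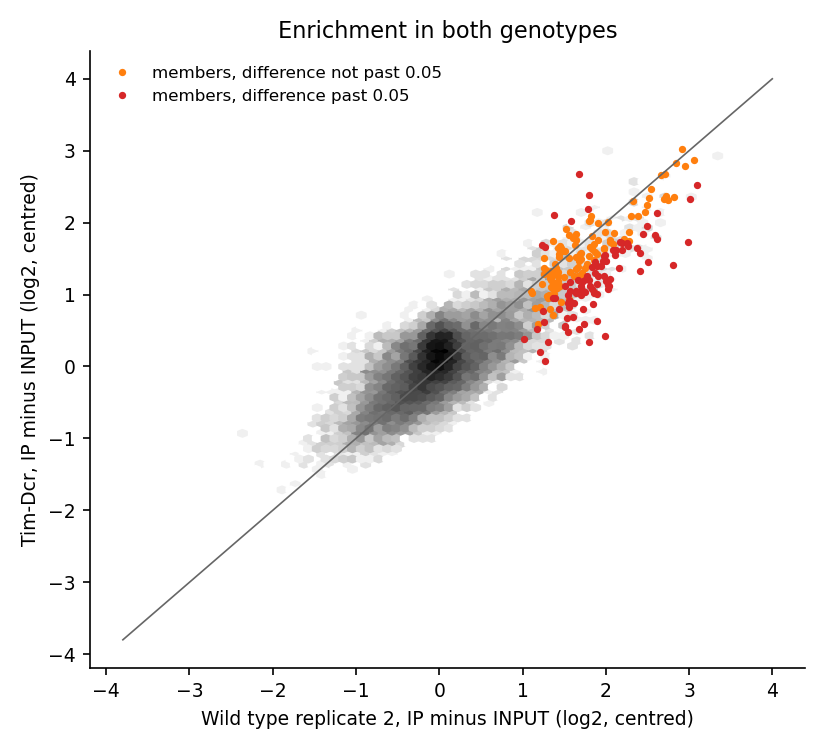
Enrichment (IP minus INPUT, centred log2) in wild-type replicate 2 on the x axis and in Tim-Dcr on the y axis, with all tested probe sets as grey density, the 202 members as points (red where the difference passed an adjusted p of 0.05, orange elsewhere) and the line of equal values. The members lie to the right of 1 and mostly under the line, with 171 of 202 below replicate 2.

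CG15044 had the largest difference past the test. In replicate 2 its INPUT levels were -0.28, -1.29, -1.15, -0.81 and -0.82 and its IP levels 1.81, 0.87, 0.87, 0.94 and 1.13. In Tim-Dcr its INPUT levels were -1.49 and -1.58 and its IP levels -1.07 and -1.16. In each fraction both Tim-Dcr levels thus lay below the whole range of replicate 2, with the larger change in IP. The medians of those 2 IP arrays were 4.54 and 4.34 as deposited, so both IP levels lay under the log2 4 of the filter on low values. How far so low a signal bears on the difference was not tested. Its enrichment was 1.57 lower on the log2 scale (difference -1.57, SE 0.14, limma adjusted p 9.29e-05). CG11741 was higher in Tim-Dcr in both fractions, with the larger change in INPUT. Its INPUT levels were 0.83, 1.20, 1.36, 0.89 and 0.99 in replicate 2 and 3.46 and 4.12 in Tim-Dcr, while its IP levels were 2.62, 3.13, 2.84, 2.87 and 2.82 and then 3.81 and 4.45. The difference of enrichment was -1.46 (SE 0.15, adjusted p 0.000166), and the INPUT level itself was 2.74 higher in Tim-Dcr (SE 0.21, adjusted p 9.37e-06).

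CG13252, the ninth gene by replicate 2 enrichment, had INPUT levels of 1.16, 1.17, 1.09, 1.45 and 1.23 in replicate 2 and 2.45 and 2.50 in Tim-Dcr. Its IP levels were 4.04, 3.96, 4.13, 4.02 and 3.95, and 3.61 and 4.15 in Tim-Dcr. Its extract level was thus higher in Tim-Dcr and its precipitate level overlapped that of the wild type, with a difference of enrichment of -1.40 (SE 0.17, adjusted p 0.00042). CG7376 (SHPRH) was -1.26 (SE 0.15, adjusted p 0.000412). CG17124 was -1.16 (SE 0.13, adjusted p 0.000247), CG5466 was -1.14 (SE 0.14, adjusted p 0.000441) and CG46339 was -0.92 (SE 0.12, adjusted p 0.000721). In these 4 both Tim-Dcr differences lay below all 5 of replicate 2. Another probe set of CG17124 had enrichments of -0.11 in replicate 2 and -0.01 in Tim-Dcr, so it did not share the difference of the member probe set.

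CG4022 was the 1 gene of the 8 smallest p-values that went the other way. Its INPUT levels were 1.28, 1.71, 1.51, 1.57 and 1.46 in replicate 2 and 1.49 and 2.00 in Tim-Dcr, and its IP levels 3.02, 3.17, 3.33, 3.32 and 3.06 and then 4.21 and 4.63. In the extract 1 of the Tim-Dcr levels lay within the replicate 2 range and 1 above it, and both Tim-Dcr IP levels were above all 5 of replicate 2. The enrichment was 1.01 higher (SE 0.14, adjusted p 0.000823), at 2.73 and 2.64 in Tim-Dcr beside 1.46 to 1.82 in replicate 2.

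The fractions were also compared one by one. Most probe sets were higher in Tim-Dcr relative to the array median, by a median of 0.57 in INPUT and 0.57 in IP over all tested probe sets (0.23 and 0.17 as deposited), and the values of members are to be read against that. In INPUT, 170 members were higher and 11 lower by limma, where 64.5% and 13.6% of tested probe sets were, with a median of 0.91. In IP, 109 were higher and 15 lower, where 61.7% and 12.1% were, with a median of 0.51. As deposited, 133 were higher and 14 lower in INPUT, where 35.5% and 17.7% of tested probe sets were. In IP, 48 were higher and 26 lower as deposited, near the 26.6% and 17.6% of tested probe sets. Without the Tim-Dcr IP array of ZT15 the IP count was 69 in all, where 35.5% of tested probe sets were higher and 10.96% lower. Without the wild-type IP array that stood apart, 125 were higher and 15 lower, where 64.95% and 12.98% were. In whole heads, fewer cells of a type and less RNA per cell cannot be told apart.

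The largest increases in the extract after CG11741 were those of CG13082 and CG15385. CG13082 had INPUT levels of -1.16, -0.58, -0.84, -1.29 and -1.03 in replicate 2 and 1.48 and 1.48 in Tim-Dcr, a difference of 2.46 (SE 0.20, limma adjusted p 1.13e-05). CG15385 was 2.35 higher (adjusted p 1.88e-05) and CG13607 was 1.78 higher (adjusted p 1.23e-05). In the precipitate, CG34106 was 1.47 higher (adjusted p 0.000116), CG13607 1.23 higher (adjusted p 0.000165) and CG13559 1.23 higher (adjusted p 0.000295). CG9945 and CG40298 in INPUT were 1.71 and 1.64 higher, and CG6638 and CG2641 in IP were 1.11 and 1.07 higher.

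Some members were far lower in Tim-Dcr extracts. CG6138 had centred INPUT levels of 2.37, 2.70, 1.68, 2.50 and 2.06 in replicate 2 and of 0.46 and -1.55 in Tim-Dcr. Its IP level was 3.78 lower on the log2 scale (difference -3.78, limma adjusted p 0.000278). CG15406 had INPUT levels of 1.76, 1.55, 1.11, 1.34 and 1.55 and then -0.64 and -0.91, a difference of -2.24 (SE 0.19, adjusted p 1.26e-05). Its IP level differed by -3.16, with the Tim-Dcr IP level of ZT15 under log2 4 as deposited. CG10344, read by 2 member probe sets, was lower by -1.29 in the IP of the first (adjusted p 0.000241). The testis, accessory gland and midgut genes given above differed between Tim-Dcr and replicate 2 INPUT by -2.95 to -5.97 on the centred scale, with the same sign in each gene. Their part in the values of CG6138, CG15406 and CG5767 was not tested.

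Time of day changed few members. A 24 h harmonic was fitted to the 23 wild-type arrays, which include the arrays that chose the members, though the choice used only a mean over times. In INPUT 4 members passed by limma, against 0.556% of tested probe sets, and in IP 7 passed, against 0.802%. Without the IP array that stood apart, 7 also passed in IP, against 0.865%. The enrichment itself passed in none of the members by limma (0.0% of tested probe sets), with 1 of 202 members and 151 of 15835 probe sets at an unadjusted p below 0.05. This fit took INPUT and IP as separate arrays, although both come from one extract. That share of probe sets, 0.954%, is smaller than evenly spread p-values would give, so the p-values of this test are not calibrated. With the 11 pairs of INPUT and IP in the fit, 0 members passed as well. An F test over the 6 times as separate levels called 2 members in INPUT (CG1943 and CG31710), against 0.29% of tested probe sets, and 2 in IP (CG31710 and CG7365), against 0.417%.

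CG31710 had the largest daily swing. As deposited, its IP levels in replicates 1 and 2 were 8.68 and 8.89 at ZT3, 9.15 and 9.13 at ZT7, 10.05 and 10.02 at ZT11, 10.74 and 10.84 at ZT15, 9.29 and 9.31 at ZT19, and 9.40 and 9.28 at ZT23. Both replicates thus peaked at ZT15 with the trough at ZT3, and at no time did they differ by more than a small part of the swing. The fitted peak-to-trough difference was 1.63 (SE 0.26), or 3.10-fold, with a peak at ZT14.3 and a limma adjusted p of 0.00381. In INPUT the swing was 1.30 (SE 0.28), with an adjusted p of 0.0807 for the harmonic and 0.00286 for the F test over separate times. The single Tim-Dcr arrays were also lower at ZT3 (7.92 in INPUT, 9.13 in IP) than at ZT15 (9.33 and 10.98).

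CG7365 followed with a similar phase. Its IP levels in replicates 1 and 2 were 7.03 and 7.65 at ZT3, 7.09 and 7.36 at ZT7, 8.14 and 7.85 at ZT11, 8.33 and 8.69 at ZT15, 7.87 and 8.28 at ZT19, and 7.37 and 7.70 at ZT23. Its swing was 1.23 in IP (SE 0.17, adjusted p 0.001) and 1.24 in INPUT (SE 0.19, adjusted p 0.00304), with peaks at ZT15.7 and ZT15.1. Extract and precipitate moved by the same amount, and the enrichment of CG7365 had an unadjusted p of 0.697 for a rhythm by limma without pairs.

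CG1943 had INPUT levels of 11.39 at ZT3, 11.66 and 11.83 at ZT7, 11.98 and 12.02 at ZT11, 12.44 and 12.54 at ZT15, 12.26 and 12.49 at ZT19, and 12.09 and 12.37 at ZT23. Its swing was 0.90 in INPUT (SE 0.14, adjusted p 0.00548) and 0.75 in IP (SE 0.13, adjusted p 0.0122). The IP call was lost without the ZT7 IP array of replicate 2 (adjusted p 0.0629). CG43092 peaked later, at ZT20.7 in INPUT and ZT21.4 in IP, with swings of 0.95 (adjusted p 0.00668) and 1.02 (adjusted p 0.00232). CG9717 passed in IP, with a swing of 1.09 (SE 0.15, adjusted p 0.000942) and a peak at ZT20.0, while its INPUT swing was 0.69 (adjusted p 0.0886).

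The other 2 members each had a call that most left-out arrays removed. CG7149 had a swing of 0.83 in INPUT (adjusted p 0.0478) and 0.97 in IP (adjusted p 0.00851), and the INPUT call was lost on leaving out any of 10 of the 11 INPUT arrays. The IP call of CG7149 was kept with each left-out IP array. CG3376 (acid sphingomyelinase) had 0.71 in IP (adjusted p 0.0426), a call lost on leaving out any of 9 of the 12 IP arrays, and 0.16 in INPUT. CG3376 was also the member with an unadjusted p of 0.0429 for a rhythm of the enrichment by limma without pairs.

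**Figure D4:**
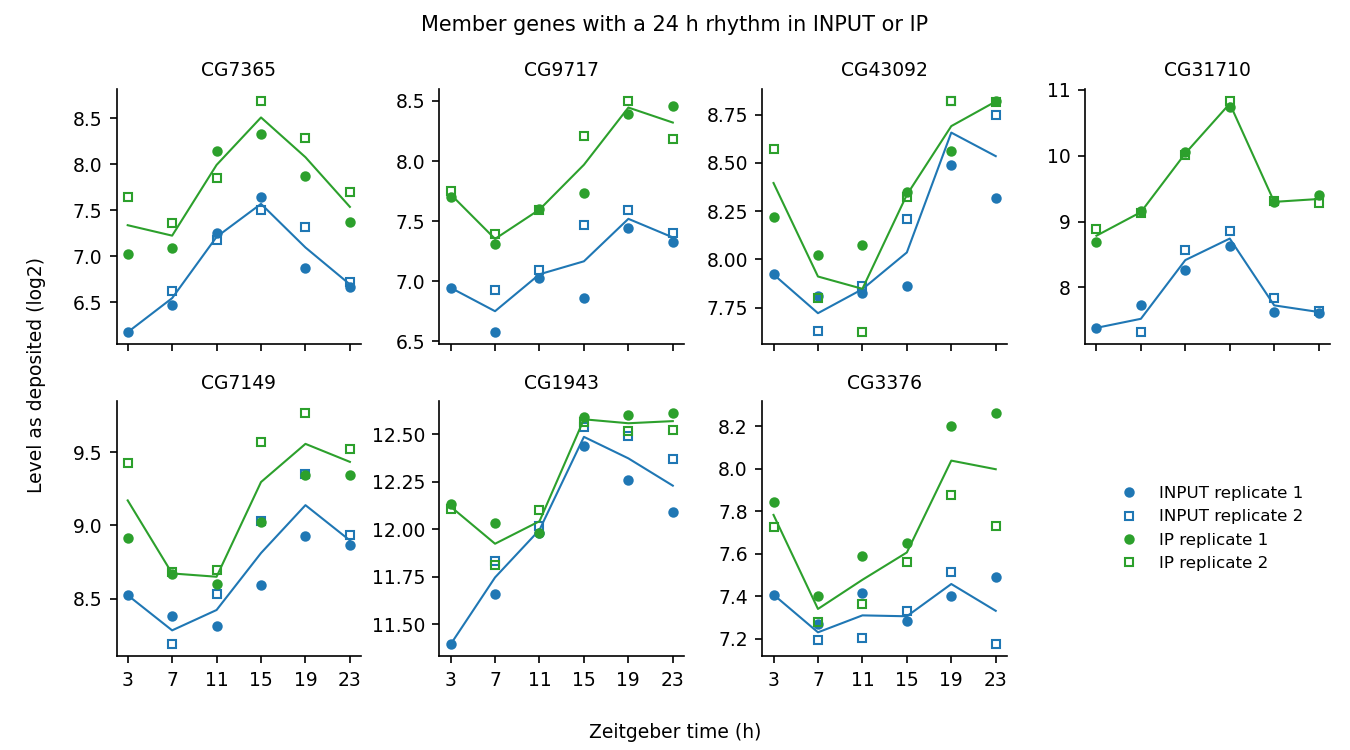
Deposited log2 level against zeitgeber time (h) for the 7 members past a 24 h rhythm test in INPUT or IP, 1 panel per gene, with 1 point per array and lines for INPUT and IP. CG31710 and CG7365 are highest at ZT15 in both fractions, and CG9717 and CG43092 are highest at ZT19 or ZT23.

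Several probe sets for 1 gene read different parts or forms of its transcripts, and 13 member genes had more than 1. Besides the members, these genes had 15 other probe sets, of which 6 were higher and 3 lower in the IP of replicate 2 by limma. Of all tested probe sets 28.1% were higher and 30.5% lower. CG10344 and CG2225 each had 2 members, with enrichments of 2.05 and 2.28, and of 2.21 and 1.99. CG12054 (1.73, 1.17 and 1.02), CG9945 (1.89 and 1.15), CG42542 (1.77 and 1.20) and CG6138 (1.27 and 0.63) were enriched with each of their probe sets. CG17754 had 2.20 and 1.38, and another probe set at -0.03.

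In other genes the probe sets disagreed. CG17124 was enriched by 1.68 (SE 0.07) with its member probe set and stood at -0.11 (SE 0.07) with another whose deposited INPUT level was higher, 11.4 beside 9.05. CG9018 had 1.71 beside 0.12 and 0.17, at like INPUT levels of 7.60, 7.67 and 7.32. CG17834 had 2.00 beside -0.23, CG33298 had 1.62 beside -0.51 and -0.23, CG44098 had 2.41 beside -0.11, and CG8026 had 1.43 beside 0.06. The other probe sets of CG33298, CG44098 and CG8026 had replicate 1 INPUT levels below 5, the minimum of the rule. Which of the probe sets of a gene reads the transcript form bound by AGO1 is not given by the arrays.

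**Figure D5:**
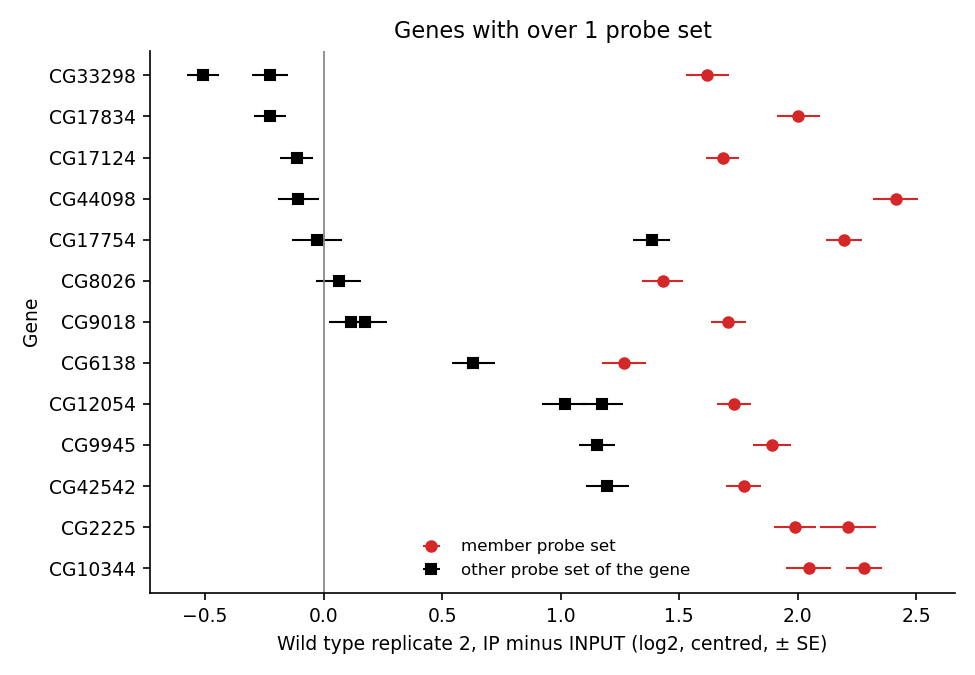
Replicate 2 enrichment (IP minus INPUT, centred log2, bars are SE, n = 5 differences) on the x axis for every probe set of the 13 member genes with over 1, with members and other probe sets marked apart. CG10344 and CG2225 lie above 1.9 with both probe sets, while CG33298, CG17834, CG44098, CG17124 and CG17754 each have a probe set below 0.

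Position among the annotated genes was examined because array probes can read overlapping transcripts, and the annotation used does not tell the strand. Of the 199 matched genes, 91 overlapped another gene, 86 overlapped a protein-coding gene and 17 lay inside another gene. The 85 overlapping protein-coding partners with a tested probe set did not share the enrichment as a group. In replicate 2, 27 were higher and 25 lower in the IP by limma, near the shares of all tested probe sets (28.1% and 30.5%), with a median of -0.04. Of 15 members that lay inside a tested protein-coding partner, 8 had a partner that was lower in the IP, where 30.5% of tested probe sets were. CG31710, for example, lies inside pelo, a gene for rescue of stalled ribosomes, whose own enrichment was -0.17. CG13116 lies inside Nckx30C, a sodium and calcium exchanger, at -1.85. Other partners of this kind lay above 0, such as atms (0.95) around CG44098, Root (0.37) around CG13607 and Trim9 (0.28) around CG6138. Among the other overlapping partners, Ccdc58 of CG14104 was at 2.33, Ada3 of CG7536 at 1.91 and Liprin-beta of CG10710 at 1.19. The probe set of a partner does not tell which transcript the probes of a member read, and this was not tested. Only 4 pairs of members were neighbours among protein-coding genes, none of them overlapping. They were CG34136 and CG9257 (1.80 and 1.87), CG15673 and CG18870 (2.39 and 2.13), CG11791 and CG31109 (1.43 and 1.32), and CG11839 and CG11836 (1.98 and 1.35).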

How the data were processed

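RNA of AGO1 precipitates and of head extracts was hybridised to 27 Affymetrix arrays after TRIzol extraction and IVT labelling with biotin, per the labels' protocols. The authors deposited 1 log2 level for each probe set and array; GCRMA is the tool named in the submitters' processing notes. The sources used here state neither its version, nor which arrays were normalized together, nor a genome build. One IP array of replicate 1 is described with another time than its title, and the ZT3 of the title was used.

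From these values, 183 control probe sets were left out and each array was centred on its median. Probe sets above log2 4 in at least 3 arrays were tested (15835). Gene symbols came from the supplied array annotation of 2016, where 402 probe sets had several symbols and 4720 none, and names, biotypes and overlaps from RefSeq. The rule's INPUT minimum of 5 was read on deposited values (2 members would pass on centred ones).

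Tests used limma 3.58.1 in R 4.3.3 with Benjamini-Hochberg adjustment over all tested probe sets at 0.05. Enrichment was fitted to 7 differences of IP minus INPUT, 5 from wild-type replicate 2 and 2 from Tim-Dcr, with 5 residual degrees of freedom. Fractions were compared with 5 or 6 replicate 2 arrays against 2. The 24 h harmonic was fitted to 23 wild-type arrays (17 residual degrees of freedom), and a swing is its peak-to-trough difference. The scripts were checked on simulated data. Tables were made with pandas 2.3.3 in Python 3.11.15, and figures with matplotlib 3.10.9. Array number limits the precision. Tim-Dcr has 1 array per fraction and time, so its spread is taken from the shared estimate. The labels call wild-type replicates biological but do not say what separates them.

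INPUT and IP of replicate 2 at one time were taken as pairs, since the design says both come from one extract. After removal of group means, the same-time correlations of INPUT and IP deviations were 0.415, 0.392, 0.660, 0.427 and 0.379 from ZT7 to ZT23, while those of different times had a median of 0.076 and ran from -0.259 to 0.403, above 2 of the same-time values.

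The members, gene lists and tests were chosen with earlier results of these data known. Genes were named by rule: the 15 highest and 6 lowest in replicate 2, 3 on each side of the threshold, the 5 highest and 5 lowest in INPUT, up to 8 of smallest p past each rhythm and Tim-Dcr test, up to 6 that failed a test of enrichment, and genes with over 1 probe set. Genes named for a RefSeq synonym, a neighbour or a partner fall outside that rule and were chosen after their values were seen. Alternatives were the deposited scale, quantile normalization of all arrays, no filter, an unmatched fit, replicate blocks and leaving out each array or time. No sequence is given, because none was used here.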

Additional observations from a re-analysis of the deposited data

Results flagged for a closer look

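Each of the following 8 results is the difference between the AGO1 enrichment of Tim-Dcr (2 times) and that of wild-type replicate 2 (5 times), tested as a difference by limma over 15835 probe sets. The first 7 were lower in Tim-Dcr at both times than at any of the 5 replicate 2 times. CG15044 differed by -1.57 (adjusted p 9.29e-05) and CG11741 by -1.46 (adjusted p 0.000166). Both Tim-Dcr IP levels of CG15044 lay below log2 4 as deposited, so its difference rests on low signals. CG13252 differed by -1.40 (adjusted p 0.00042) and CG7376 by -1.26 (adjusted p 0.000412). CG17124 differed by -1.16 (adjusted p 0.000247), CG5466 by -1.14 (adjusted p 0.000441) and CG46339 by -0.92 (adjusted p 0.000721). The value of CG17124 is that of its member probe set, and another probe set had enrichments of -0.11 in replicate 2 and -0.01 in Tim-Dcr. CG4022 differed by 1.01 in the other direction (adjusted p 0.000823), higher at both times than at any replicate 2 time. These 8 kept their direction and their call under the deposited scale, quantile normalization, no filter and each left-out time. The groups of 1 or 2 arrays per time were too small for a test of single arrays within a group, and the wild-type IP array that stood apart across times enters none of these 8 differences.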

How the results depend on the processing

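The enrichment of the members in replicate 2 gave 202 calls under quantile normalization, no filter, replicate 2 differences alone, the unmatched fit and each left-out time, and 145 higher and 2 lower on deposited values. There 18 members turned, and those named by rule were CG11113 (-0.0933), CG16772 (-0.1078), CG9164 (-0.1301), CG31051 (-0.1719), CG5177 (-0.1877), CG31418 (-0.271), CG6138 (-0.0191) and CG5767 (-0.0698). Over all tested probe sets, 4445 higher and 4831 lower on centred values became 538 higher of 15357 called. In Tim-Dcr the 196 calls became 65 on deposited values, where 97 members turned, those named by rule being CG11113 (-0.7608), CG31418 (-0.9681), CG15406 (-0.8822), CG40298 (-0.8043), CG6138 (-1.2777) and CG5767 (-1.1503). The deposited scale keeps the general shift between the fractions, which was -1.30 in replicate 2. Over all tested probe sets, calls on deposited values went from 7128 to 15278 in Tim-Dcr and from 11687 to 7006 in the IP comparison, and calls of the Tim-Dcr difference went from 3608 to 1373 against the 3 differences of both wild-type replicates at ZT3 and ZT15, of which 2 come from arrays that chose the members. CG15406 was also -0.1352 without Tim-Dcr ZT3 and 1.0826 without ZT15. Calls in Tim-Dcr ranged from 192 to 197 over left-out times.

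The Tim-Dcr difference gave 94 calls, 107 as deposited, 112 with quantile normalization and 44 to 83 over left-out times, the lowest without Tim-Dcr ZT3. The IP comparison gave 124, 74 as deposited and 69 to 157 over left-out arrays, the lowest without Tim-Dcr IP at ZT15, and the INPUT comparison 144 to 190. The harmonic gave 4 calls in INPUT (3 to 5 over left-out arrays) and 7 in IP (5 to 7), and the test of any difference between times 2 and 2. Causes of these changes were not tested, and each left-out fit also had fewer arrays. With the replicate number as a replicate block the counts were 4 in INPUT and 7 in IP, and with the 11 INPUT and IP pairs as a replicate block 0 members passed for a rhythm of IP minus INPUT; no call of a member changed with a block. In all, 1198 of the named values under alternatives kept direction and call, 41 lost the call, 8 gained it and 15 turned.

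The 2 alternatives on the choice of members and the 2 on the times compared were added after seeing the data. Without ZT3 the rule kept 203 probe sets, 197 of them shared. On deposited values with the threshold moved by -1.25, the median deposited difference of replicate 1, it kept 177, all shared. The values used hold no detection calls, so how far members with INPUT levels close to 5 stood above background was not measured.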
